A study of Mus musculus with 4 samples.

Results

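The forkhead (Fox) and Kruppel-like factor (Klf) genes were compared between Lgr5+ and Lgr6+ progenitors of the neonatal mouse cochlea. A gene was taken as a member by its symbol, either *Fox* followed by a letter from a to s and a number, or *Klf* followed by a number, and no measured value entered this choice. The rule found 61 of the 23997 genes of the deposited table, namely 44 *Fox* genes and 17 *Klf* genes. The Lgr5+ progenitors were EGFP+ cells sorted from P3 cochleae of Lgr5-EGFP-IRES-CreERT2 mice, and the Lgr6+ progenitors were EGFP+ cells sorted from P3 cochleae of Lgr6-EGFP-IRES-CreERT2 mice, both on the C57BL/6 strain according to the labels. In each line the reporter and the tamoxifen-inducible recombinase CreERT2 are driven from the *Lgr5* or the *Lgr6* gene, so each population is defined by the activity of that gene and can hold more than 1 cell type. The labels list 2 libraries for each population, and the methods describe the RNA of each population as divided into fractions after extraction, so replicates would not be separate animals.

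Forkhead factors bind DNA through a winged helix domain, and individual members act in the otic epithelium, in mesenchyme and vessels, in multiciliated cells, in the cell cycle and in the response to insulin. Kruppel-like factors bind GC-rich and CACCC sequences through zinc fingers at their C-terminus, and their N-terminal parts recruit either activators or the corepressors CtBP and Sin3. Both families are read out of many cell types at once in a sorted population, since members mark epithelial, mesenchymal, endothelial and blood cells. In bulk RNA, fewer cells of a type and less RNA per cell cannot be told apart.

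The table that the authors deposited gives 1 FPKM per gene and population, which is a fragment count scaled to transcript length and to the depth of sequencing and combines the libraries. The spread between replicates is therefore unknown, and no difference given here has a replicate check or a test. A gene was kept when its FPKM reached 1 in either population, and a kept gene was counted as higher in a population when its values, each plus 1, differed by 1.5-fold or more. The log2 change is always log2(FPKM + 1) of Lgr6+ minus that of Lgr5+, and the added 1 shrinks the change of low genes. Where a pair of values is given without a population, the former is that of Lgr5+ and the latter that of Lgr6+ progenitors. The authors' files hold no read counts, but low FPKM values lay on steps when multiplied by transcript length. Of 7050 genes with 1 annotated transcript, 62 lay at the step of the Lgr5+ population against 3 beside it, and 22 lay at the step of the Lgr6+ population against 2.5 beside it. Were a step worth 1 fragment, the combined values would rest on 7770867 fragments in the Lgr5+ population and 24802588 in the Lgr6+ population, so low levels were read less finely in the Lgr5+ population. The number of steps behind a value, computed with the longest annotated transcript, was used as an approximate fragment count, and the 95% exact intervals made from it cover counting error only. Of 12 values under 20 steps in members with 1 annotated transcript, 7 lay within 0.1 of a whole number of steps.

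The genes that define the sorts, *Lgr5* and *Lgr6*, were both higher in the Lgr6+ population, *Lgr6* by less than 1.5-fold. The paper describes Lgr6+ cells as a subpopulation of Lgr5+ progenitors, so *Lgr5* can be expressed in both populations. *Lgr5* had an FPKM of 9.65 in the Lgr5+ population and 25.0 in the Lgr6+ population, so it was higher in the population labelled Lgr6+. *Lgr6* had an FPKM of 2.06 and 2.90, and *Sox2*, a marker of supporting cells and prosensory cells, had an FPKM of 140 and 54.8. Among the marker lists of other cells, the 9 macrophage markers summed to an FPKM of 1.47 in the Lgr5+ and 256 in the Lgr6+ population. Of these, 6 were listed at 0 in the Lgr5+ population. The 7 kept macrophage markers were all higher in the Lgr6+ population, which follows in part from the filter, since each was kept only through that population. The 8 endothelial markers summed to 14.8 and 88.6, with 7 higher in the Lgr6+ population and *Kdr*, the VEGF receptor, listed at 0 in the Lgr5+ population. The 8 erythroid markers went the other way with sums of 630 and 109, and 4 of the 5 kept, all of them globin genes, were higher in the Lgr5+ population. The 7 hair cell markers summed to 305 and 587, with 5 higher in the Lgr6+ population.

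The promoters of 3 genes that the results turn on are shown, namely *Foxf2* and *Foxc1* of a chromosome 13 cluster that was higher in the Lgr6+ population and *Klf7*, the Klf gene furthest toward Lgr5+ progenitors. Each run is the 250 bases before the RefSeq start of the gene in GRCm38.p6, read 5′ to 3′ on the gene's strand, and capitals mark each GC box, GGGCGG read on either strand, a sequence that Klf factors and their relatives, the Sp factors, bind. The *Foxf2* window is chr13:31625566-31625815 on the plus strand, the *Foxc1* window is chr13:31806396-31806645 on the plus strand, and the *Klf7* window is chr1:64121390-64121639 on the minus strand.
Foxf2: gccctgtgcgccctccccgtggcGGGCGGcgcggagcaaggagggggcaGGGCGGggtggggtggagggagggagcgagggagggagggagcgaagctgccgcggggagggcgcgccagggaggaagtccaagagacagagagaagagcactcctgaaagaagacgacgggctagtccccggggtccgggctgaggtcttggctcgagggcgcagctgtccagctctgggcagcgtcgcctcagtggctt
Foxc1: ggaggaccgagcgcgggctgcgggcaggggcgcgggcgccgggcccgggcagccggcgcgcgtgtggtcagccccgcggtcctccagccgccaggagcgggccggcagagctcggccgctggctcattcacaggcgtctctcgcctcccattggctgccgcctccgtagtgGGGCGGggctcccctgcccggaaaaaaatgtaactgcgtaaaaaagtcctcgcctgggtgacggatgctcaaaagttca
Klf7: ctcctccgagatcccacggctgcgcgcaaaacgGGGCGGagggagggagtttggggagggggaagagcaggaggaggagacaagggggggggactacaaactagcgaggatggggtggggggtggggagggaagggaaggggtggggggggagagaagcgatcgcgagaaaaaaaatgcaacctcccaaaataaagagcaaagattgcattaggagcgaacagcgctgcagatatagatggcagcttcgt
The *Foxf2* window holds 2 GC boxes, and the *Foxc1* and *Klf7* windows hold 1 each. A RefSeq window was found for 41 of the 61 members, not for *Foxq1* and *Klf5*, and some members had more than 1. A gene was counted when any of its windows held the sequence. GGGCGG, searched on both strands, was found for 31 of the 41 members, 75.6%, against 35.4% of 27025 genes. It was found for 16 of the 20 kept members with a window and for 15 of the 21 that were not kept. CACCC, also searched on both strands and able to share end bases with a GC box, was found for 29 of the 41 members, against 54.5% of all genes. GTAAACA, a core sequence bound by forkhead factors, was found for 2 of the 41 members, against 3.54% of all genes. These matches describe the letters of the windows and say nothing of binding.

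Of the 44 *Fox* genes, 19 were kept, 11 were above 0 but below the limit in both populations, and 14 were listed at 0 in both. Of the 17 *Klf* genes, 13 were kept, 3 were above 0 but below the limit, and *Klf14* was listed at 0 in both. Among the kept *Fox* genes, 6 of 19 (31.6%) were higher in the Lgr5+ population and 5 (26.3%) were higher in the Lgr6+ population. Among the kept *Klf* genes, 3 of 13 (23.1%) were higher in the Lgr5+ population and 4 (30.8%) were higher in the Lgr6+ population. Of all 13436 kept genes, 23.3% were higher in the Lgr5+ population and 28.5% were higher in the Lgr6+ population. The shares of both families were thus not far from those of all genes. Counts of the other gene lists are to be read beside the same shares of all kept genes. After quantile normalization the *Fox* genes split into 7 higher in Lgr5+ and 4 higher in Lgr6+, and the *Klf* genes into 5 and 2, so the balance of the *Klf* genes depended on the scaling. The median log2 change was -0.17 for the *Fox* genes and -0.17 for the *Klf* genes, against 0.03 for all kept genes. The other 8 *Fox* and 6 *Klf* genes differed by less than 1.5-fold. Of the kept members, 7 *Fox* and 2 *Klf* genes reached the limit in only 1 population, and such genes tend to differ by the way they were kept. Summed FPKM was 148 and 132 over all *Fox* genes and 120 and 108 over all *Klf* genes in the Lgr5+ and the Lgr6+ population, while the sum over all genes in the Lgr6+ population was 83.3% of that in the Lgr5+ population.

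**Figure D1:**
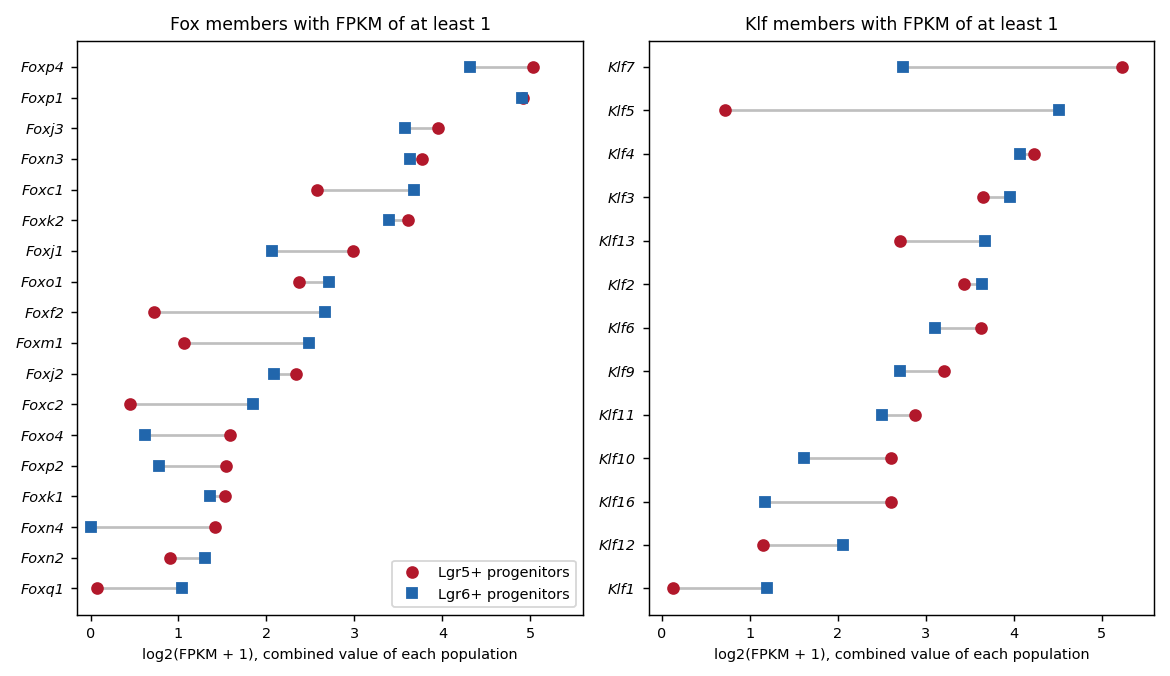
FPKM of the kept *Fox* and *Klf* members, except 1 *Fox* gene, on the log2(FPKM + 1) scale (horizontal axis) for each gene (vertical axis); circles are Lgr5+ progenitors and squares are Lgr6+ progenitors, each the combined value of the population without an error. *Klf5* and *Klf7* have the widest gaps, in opposite directions, while *Foxp1* has nearly the same level in both.

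Among the *Fox* genes with the highest FPKM in Lgr5+ progenitors were *Foxp4*, *Foxp1*, *Foxj3* and *Foxn3*, at 31.6, 29.2, 14.4 and 12.7. In Lgr6+ progenitors the highest were *Foxp1*, *Foxp4*, *Foxc1*, *Foxn3* and *Foxj3*, with FPKM of 29.0, 18.9, 11.8, 11.4 and 10.9. *Foxp1* and *Foxp4* led in both populations, and without a spread between replicates neighbouring ranks such as *Foxn3* and *Foxj3* cannot be told apart.

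Of the otic and cilium factors, *Foxj1* and *Foxn4* were higher in the Lgr5+ population. *Foxj1*, the master regulator of motile cilia (chr11:116330704-116335354), had an FPKM of 6.90 and 3.18, a log2 change of -0.92. *Foxn4*, which acts in retinal and spinal progenitors (chr5:114254164-114273761), had an FPKM of 1.67 in the Lgr5+ population and was listed at 0 in the Lgr6+ population, so no fold is given. The 3 *Foxi* genes, which act in the otic placode and in ionocytes, were listed at 0 in both populations.

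The kept genes of the motile cilium list linked to *Foxj1* leaned toward the Lgr6+ population, whereas *Foxj1* was lower there. Of 11 kept genes of that list, 7 (63.6%) were higher in the Lgr6+ population and 0 were higher in the Lgr5+ population. Their median log2 change was 0.80. Of the 11, 3 reached the limit only in the Lgr6+ population, so the count and the median follow in part from the filter. *Dnaic1*, a dynein chain, had an FPKM of 0.281 and 5.02, and *Tekt4*, a protein of the axoneme, was listed at 0 in the Lgr5+ population and had an FPKM of 1.90 in the Lgr6+ population, so both were kept only through the Lgr6+ population. *Tekt1* and *Dnaic2*, which had high levels in this list, had FPKM of 64.1 and 50.3 and of 37.3 and 25.1, within 1.5-fold and lower in the Lgr6+ population as *Foxj1* was. Only these 2 of the 11 kept genes were lower there, and 9 were higher. *Rsph1* and *Ccdc39*, also at high levels, went the other way past 1.5-fold, with FPKM of 26.0 and 52.3 and of 23.5 and 43.2. Of the 8 genes of the list that were not kept, *Dnah9*, a dynein chain, had an FPKM of 0.650 and 0.0175, and *Spag17*, of the central pair, 0.638 and 0.0308. Others of these 8, such as *Dnah11* at 0.505 and 0.722, were higher in the Lgr6+ population. Hair cells carry a kinocilium, and 5 of the 7 hair cell markers were also higher in the Lgr6+ population, but the part of hair cells in this difference was not tested. Of the 4 kept genes of the *Foxi1* ionocyte list, 2 were higher in the Lgr5+ population and 1 in the Lgr6+ population, with *Slc26a4*, which encodes pendrin, at 4.58 and 1.19, *Car12*, a carbonic anhydrase, at 6.70 and 3.48, and *Atp6v1c2*, a proton pump subunit, at 0 and 7.89.

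The 4 mesenchyme and mesoderm factors that were kept were all higher in the Lgr6+ population, but 3 of them were kept only through it. The 10 members of this group summed to an FPKM of 6.89 in the Lgr5+ and 21.2 in the Lgr6+ population. *Foxf2*, a factor of mesenchyme and pericytes (chr13:31625816-31631406), had an FPKM of 0.649 and 5.36, a log2 change of 1.95. About 11 and 288 steps stood behind these values, and the ratio of 8.26 had a counting interval of 4.52 to 16.6. *Foxc2*, which acts in lymphatic vessels and mesoderm (chr8:121116171-121118894), had an FPKM of 0.365 and 2.59, a ratio of 7.09 with an interval of 3.44 to 18.3. *Foxc1*, its close relative in mesenchyme around the eye and the brain (chr13:31806646-31810635), had an FPKM of 4.96 and 11.8, a log2 change of 1.10, and was the only one of the 4 with an FPKM above 1 in both populations. *Foxq1* (chr13:31558170-31560974) had an FPKM of 0.0495 and 1.05, with about 1 step in the Lgr5+ population, so its ratio of 21.3 had an interval of 3.70 to 854.

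*Foxq1*, *Foxf2* and *Foxc1* lie next to each other on chromosome 13, with gaps of 64.8 kb and 175 kb between the table's gene positions. Another cluster, on chromosome 8, holds *Foxf1*, *Foxc2* and *Foxl1* with gaps of 28.0 kb and 8.79 kb, and of these only *Foxc2* was kept. *Foxf1*, a factor of visceral mesenchyme, had an FPKM of 0.774 and 0.0850 on about 6 and 2 steps, and *Foxl1*, of gut mesenchyme, had an FPKM of 0.0934 and 0.0729. *Foxd1*, of kidney stroma and retina, had an FPKM of 0 and 0.321. *Foxd2*, *Foxl2* and *Foxs1* were listed at 0 in both populations.

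Of the 8 endothelial markers, 7 were higher in the Lgr6+ population, and some of these, *Pecam1* and *Kdr* included, were kept only through it. The otic mesenchyme markers were mixed. Of the 11 otic mesenchyme markers, all kept, 4 were higher in the Lgr6+ population and 1 in the Lgr5+ population, the other 6 differed by less than 1.5-fold, and the sums were 339 and 362. *Col3a1* and *Col1a2*, fibrillar collagens, had FPKM of 5.07 and 32.4 and of 15.8 and 90.2, while *Lum*, a proteoglycan of connective tissue, had an FPKM of 179 and 101. The endothelial markers *Cldn5*, a tight junction protein of vessels, and *Pecam1*, an adhesion molecule, had FPKM of 2.95 and 27.3 and of 0.303 and 8.31, whereas *Tie1*, an endothelial receptor kinase, had an FPKM of 2.09 and 0.999. The part of these cells in the levels of *Foxf2*, *Foxc1*, *Foxc2* and *Foxq1* was not tested.

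**Figure D2:**
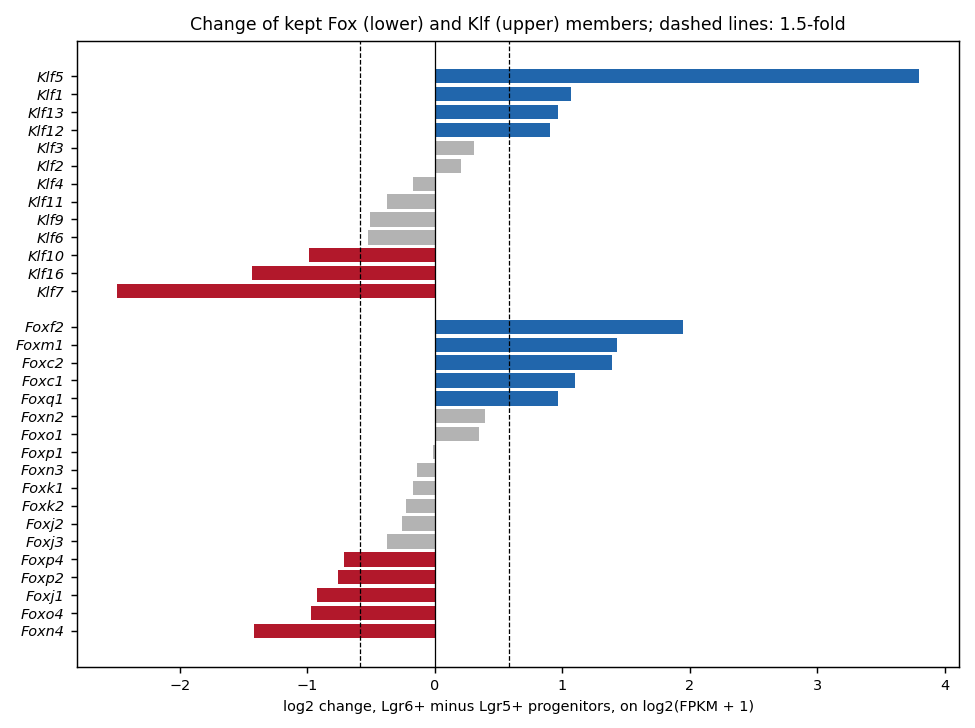
Log2 change of the kept members, except 1 *Fox* gene (horizontal axis, Lgr6+ minus Lgr5+ progenitors on log2(FPKM + 1)), with *Fox* genes below and *Klf* genes above and dashed lines at 1.5-fold. The *Fox* genes spread from -1.42 for *Foxn4* to 1.95 for *Foxf2*, and the *Klf* genes from -2.49 for *Klf7* to 3.80 for *Klf5*.

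Among the Foxp factors, *Foxp1* differed little, *Foxp4* and *Foxp2* were higher in the Lgr5+ population, and *Foxp3* was not kept. *Foxp1*, a repressor in many lineages (chr6:98925342-99435345), had an FPKM of 29.2 and 29.0, a ratio Lgr6+ over Lgr5+ of 0.993 with a counting interval of 0.937 to 1.05. *Foxp4*, its partner in heterodimers (chr17:47867133-47924632), had an FPKM of 31.6 and 18.9, a log2 change of -0.71. *Foxp2*, which acts in neurons, had an FPKM of 1.90 and 0.714, a log2 change of -0.76. *Foxp3*, the factor of regulatory T cells, had an FPKM of 0.126 on about 4 steps in the Lgr5+ population and was listed at 0 in the Lgr6+ population. None of the 6 T cell markers was kept, and 4 of them were listed at 0 in both populations.

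The Foxo factors, which Akt holds out of the nucleus when insulin or growth factors are present, were low. *Foxo1* had an FPKM of 4.15 and 5.54, which is within 1.5-fold. *Foxo4* (chrX:101254528-101260873) had an FPKM of 2.01 and 0.536, a log2 change of -0.97 on about 46 and 39 steps, and was 3.74-fold higher in the Lgr5+ population by FPKM with an interval of 2.40 to 5.92. *Foxo6* was not kept at 0.491 and 0.0173, and *Foxo3* was listed at 0 in the Lgr5+ population and had an FPKM of 0.0428 in the Lgr6+ population. All 12 kinases, phosphatases and receptors upstream of Foxo were kept. Of these, 3 (25.0%) were higher in the Lgr6+ population and 2 (16.7%) in the Lgr5+ population, against 28.5% and 23.3% of all kept genes. *Irs2*, which links the insulin receptor to its kinases and is itself a Foxo target, had an FPKM of 17.3 and 3.96, *Sgk1*, a kinase related to Akt, 17.3 and 11.2, and *Pdpk1*, the kinase that activates Akt, 4.61 and 8.69. Of the 13 kept Foxo target genes, 5 (38.5%) were higher in the Lgr6+ population and 2 (15.4%) in the Lgr5+ population. The former were led by *Sesn1*, a sestrin, at 9.27 and 20.6 and *Ccng2*, a cyclin, at 17.8 and 35.1. In the other direction stood *Irs2* and *Bcl2l11*, which encodes the death protein Bim, at 7.72 and 4.68.

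*Foxm1*, the forkhead factor that drives genes of mitosis (chr6:128362994-128385144), was higher in the Lgr6+ population. Its FPKM was 1.09 and 4.61, a log2 change of 1.43, on about 35 and 480 steps, and the ratio of 4.24 had a counting interval of 3.05 to 6.24. Of the 12 kept Foxm1 target genes, 6 were higher in the Lgr6+ population and 1 in the Lgr5+ population, with a median log2 change of 0.46. Among these 6, 4 were kept only through the Lgr6+ population, so the count and the median follow in part from the filter. *Cenpa*, the centromeric histone, had an FPKM of 0.540 and 15.1, and *Aurkb*, a mitotic kinase, had an FPKM of 0.540 and 8.51. *Skp2*, a subunit of the ubiquitin ligase that degrades p27, had an FPKM of 4.50 and 1.32. The summed FPKM of the 15 target genes was close in the populations, at 158 and 162. *Cks1b*, a cofactor of Skp2, alone had an FPKM of 102 and 80.8, so the sums say little of the low target genes. *Foxn2* and *Foxn3*, of which the latter is a repressor of cell cycle genes, had FPKM of 0.871 and 1.46 and of 12.7 and 11.4, and both differed by less than 1.5-fold.

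*Foxj2*, *Foxj3*, *Foxk1* and *Foxk2*, which are present in most tissues, were kept in both populations and differed by less than 1.5-fold. Their log2 changes lay between -0.37 for *Foxj3* and -0.17 for *Foxk1*, each toward Lgr5+ progenitors, and their FPKM lay between 1.89 and 14.4 in the Lgr5+ population. The remaining 13 *Fox* genes act in lineages such as endoderm, thymus, lens, thyroid and germ cells, and none was kept. The highest FPKM among them was 0.0971, that of *Foxb1* in the Lgr5+ population, and 8 of them were listed at 0 in both populations.

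**Figure D3:**
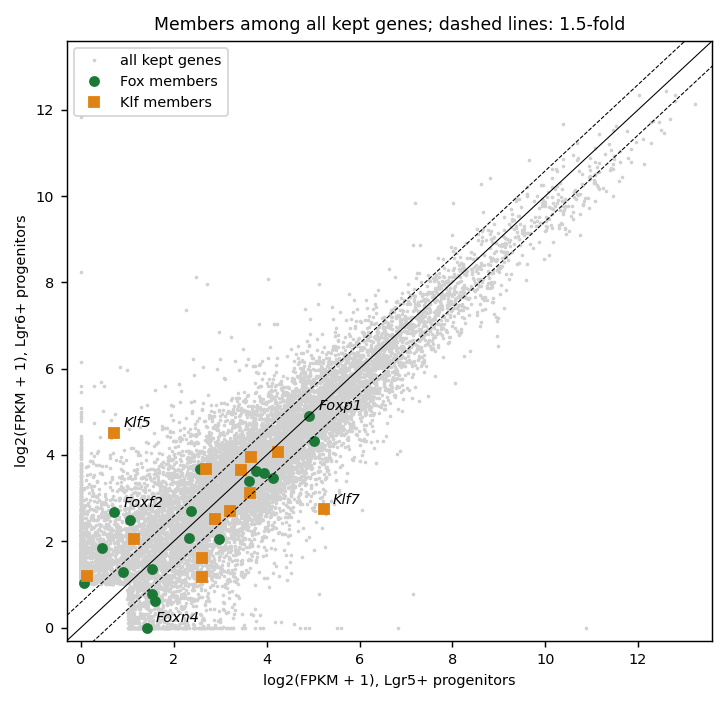
Log2(FPKM + 1) in the Lgr5+ population (horizontal axis) against Lgr6+ progenitors (vertical axis) for all 13436 kept genes (grey points), the *Fox* members and the *Klf* members, with dashed lines at 1.5-fold. *Klf5* lies far above the lines and *Klf7* far below them, and 14 of the 32 kept members lie between the lines.

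The *Klf* genes with the highest FPKM were *Klf7*, *Klf4*, *Klf3*, *Klf6* and *Klf2* in the Lgr5+ population, at 36.7, 17.9, 11.6, 11.4 and 9.84. In Lgr6+ progenitors they were *Klf5*, *Klf4*, *Klf3*, *Klf13* and *Klf2*, at 21.9, 15.8, 14.6, 11.7 and 11.5. *Klf4*, *Klf3* and *Klf2* were thus among the highest in both, and the first place went to a different gene in each.

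The group of mainly activating Klf factors held the widest differences in both directions. *Klf5*, a factor of proliferating epithelium (chr14:99298691-99313409), had an FPKM of 0.642 in the Lgr5+ population and 21.9 in the Lgr6+ population, a log2 change of 3.80. About 8 and 825 steps stood behind these values, and the ratio of 34.1 had a counting interval of 16.3 to 75.1. *Klf7*, a factor of neurons and their axons (chr1:64035671-64121389), had an FPKM of 36.7 in the Lgr5+ population and 5.71 in the Lgr6+ population, a log2 change of -2.49. It was 6.42-fold higher in the Lgr5+ population, with an interval of 5.96 to 6.92 that assumes the longest transcript. *Klf7* has 5 annotated transcripts of 553 to 7664 bases and *Klf5* has 1 of 1721 bases, so the FPKM of *Klf7* also depends on how fragments were shared among its transcripts. Of the 6 neuron markers, all kept, 2 were higher in the Lgr6+ population and 1 in the Lgr5+ population. *Snap25*, a protein of synaptic vesicle release, had an FPKM of 7.63 and 53.4, *Rbfox3*, the antigen NeuN, 11.7 and 18.0, and *Tubb3*, a neuronal tubulin, 1.18 and 0.0959. As a whole the neuron list, with a median log2 change of 0.07, leaned neither way.

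*Klf1*, the erythroid Kruppel-like factor (chr8:84901928-84905295), was higher in the Lgr6+ population, where the globin genes were lower. Its FPKM was 0.0959 in the Lgr5+ population on about 1 step and 1.30 in the Lgr6+ population on about 43 steps, and the ratio of 13.5 had an interval of 2.29 to 544. *Hba-a2* and *Hba-a1*, α-globin genes whose near-identical copies share reads, had FPKM of 142 and 0.712 and of 34.1 and 0.710, and all 4 erythroid markers higher in the Lgr5+ population were globin genes. *Alas2*, the erythroid enzyme of haem synthesis, had an FPKM of 4.36 and 6.64, and *Epor*, the erythropoietin receptor, which was not kept, 0.207 and 0.762. *Gata1*, the erythroid partner of *Klf1*, was listed at 0 in both populations. *Klf2*, *Klf4* and *Klf6*, which respond quickly to stress and growth factors, had FPKM of 9.84 and 11.5, of 17.9 and 15.8 and of 11.4 and 7.64, all within 1.5-fold, although *Klf6* passed that limit after quantile normalization at -0.61. Of the 17 kept immediate early genes, 9 were higher in the Lgr5+ population and 2 in the Lgr6+ population, with sums of 2475 and 1651. *Fosl2*, an AP-1 subunit, had an FPKM of 3.70 and 0.121, *Egr2*, a zinc finger factor, 62.5 and 19.7, *Zfp36*, which destabilises mRNA, 20.7 and 41.8, and *Myc* 0.0740 and 1.32. Immediate early genes can also be induced while tissue is dissociated, and their part in the levels of *Klf2*, *Klf4*, *Klf6* and *Klf10* was not tested.

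The Sin3-binding repressors did not move together. *Klf16* (chr10:80567121-80577296) had an FPKM of 5.08 and 1.25, a log2 change of -1.43, and was 4.05-fold higher in the Lgr5+ population with an interval of 2.95 to 5.52. *Klf10*, which is induced by TGF-β (chr15:38291464-38300711), had an FPKM of 5.09 and 2.08, a log2 change of -0.99. *Klf13* (chr7:63886351-63938915) had an FPKM of 5.52 and 11.7, a log2 change of 0.96, with a ratio of 2.12 and an interval of 1.86 to 2.42. *Klf9*, which is induced by glucocorticoid and thyroid hormone, had an FPKM of 8.28 and 5.53, and *Klf11* had an FPKM of 6.38 and 4.69, both within 1.5-fold.

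Among the CtBP-binding repressors, *Klf12*, a repressor of AP-2α (chr14:99870640-100149796) had an FPKM of 1.22 and 3.17, a log2 change of 0.91 on about 53 and 434 steps, which was 0.58 and within 1.5-fold after quantile normalization. It lies 557 kb from *Klf5*, which was also higher in the Lgr6+ population. *Klf3* had an FPKM of 11.6 and 14.6, within 1.5-fold, and *Klf8* was not kept at 0.0444 and 0.0101. *Klf15*, of muscle and kidney, and *Klf17* were listed at 0 in the Lgr5+ population and reached only 0.749 and 0.50 in the Lgr6+ population, on about 40 and 27 steps. Of the 10 corepressors and cofactors of the Klf factors, all kept, 3 (30.0%) were higher in the Lgr5+ population and 1 (10.0%) in the Lgr6+ population. Over all kept genes these shares were 23.3% and 28.5%. *Hdac1*, a histone deacetylase of the Sin3 complex, had an FPKM of 55.1 and 30.1, *Crebbp*, an acetyltransferase, 19.5 and 11.0, and *Ctbp2*, which in sensory cells also shares its gene with the synaptic protein Ribeye, 26.5 and 42.4. The 5 kept Sp factors, which bind the same GC boxes, all differed by less than 1.5-fold, with a median log2 change of 0.10.

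**Figure D4:**
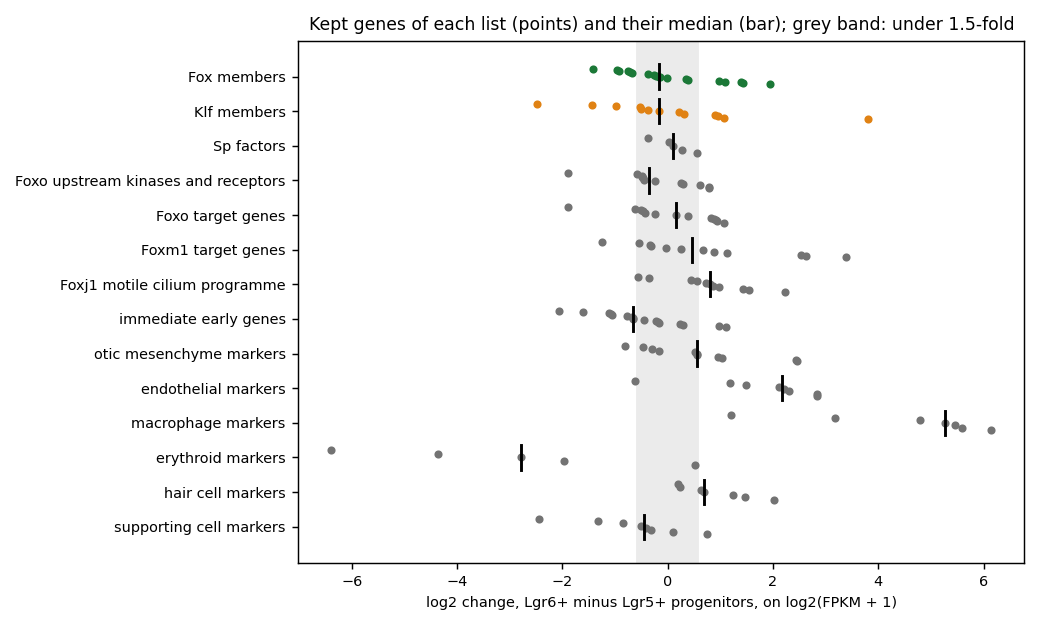
Log2 change (horizontal axis, Lgr6+ minus Lgr5+ progenitors on log2(FPKM + 1)) of the kept genes of each list (points) with the median of the list (bar), and a grey band for changes under 1.5-fold. The macrophage and endothelial lists have medians of 5.27 and 2.16 and the erythroid list has a median of -2.78.

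Of the 8 supporting cell markers, all kept, 3 were higher in the Lgr5+ population and 1 in the Lgr6+ population, with *Hes5*, a Notch target, at 505 and 91.7 and *Lfng*, a modifier of Notch, at 9.96 and 17.4. Of the 5 kept Schwann cell and melanocyte markers, 2 were higher in the Lgr6+ population and 1 in the Lgr5+ population, with *Pmel*, of melanosomes, at 0.318 and 3.03, and *Mitf*, of melanocytes, at 1.18 and 0.121. Of the hair cell markers, *Otof*, otoferlin, had an FPKM of 41.6 and 171, and *Gfi1*, a hair cell transcription factor, had an FPKM of 19.5 and 55.5. Of the macrophage markers, *C1qb* and *C1qc*, complement subunits, were listed at 0 in the Lgr5+ population and had FPKM of 69.9 and 47.1 in the Lgr6+ population. The part of these cells in the levels of the *Fox* and *Klf* genes was not tested.

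Close to the 1.5-fold limit were *Klf9* and *Klf6* below it, with log2 changes of -0.51 and -0.52, and *Foxp4* beyond it, with a log2 change of -0.71. Members with a difference beyond the limit rested on few and on many steps. *Foxq1* and *Klf1* rest on about 1 step and *Klf5* on about 8 in the Lgr5+ population, while *Klf7*, *Foxp4*, *Foxc1* and *Klf13* rest on over 100 steps in both populations.

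**Figure D5:**
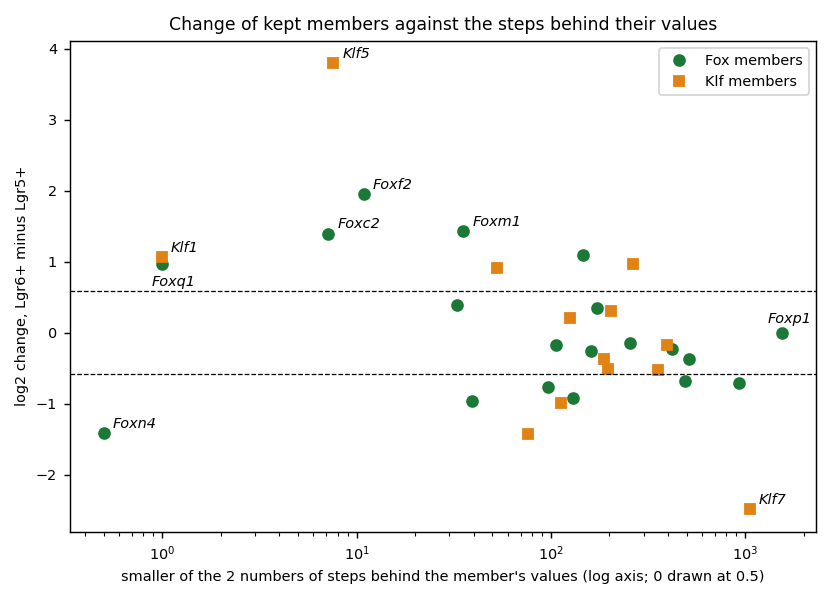
Log2 change of the kept members (vertical axis, Lgr6+ minus Lgr5+ progenitors on log2(FPKM + 1)) against the smaller of the numbers of steps behind their 2 values (horizontal log axis, with 0 drawn at 0.5). *Klf7* stands far from 0 with 1057 steps, whereas *Klf5*, *Foxf2* and *Foxc2* do so with 7 to 11 steps in the lower population.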

How the data were processed

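Lgr5+ and Lgr6+ progenitors were sorted from P3 cochleae. The authors made cDNA with a low-input SMART-Seq kit and used Trimmomatic for trimming, TopHat for mapping and Cufflinks for FPKM, whose versions are not given in the sources used here. The deposited FPKM is 1 combined value per population. The deposited log2 fold change, p-value and q-value are the authors' own comparison and were not used. The submitters' processing notes name mm10 and the methods mm9. After 1 was added to the table's starts, 98.8% of 22500 shared symbols overlapped the RefSeq gene in GRCm38.p6, so positions are read as GRCm38.

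Here a pseudocount of 1, a minimum FPKM of 1 in either population and a 1.5-fold threshold were used. No test was run. Steps were read as FPKM times transcript length (NCBIM37 annotation) less 200 bases. The 95% intervals of ratios are exact binomial intervals and, since PCR reads are not independent molecules, cover counting error only. Every member could be named; of other lists, the 2 genes with the largest change in each direction. A few genes that this rule names, 1 member among them, are not reported here. *Tekt1*, *Dnaic2*, *Rsph1*, *Ccdc39*, *Dnah9*, *Dnah11*, *Spag17*, *Cks1b*, *Alas2*, *Epor*, *Gata1* and *Kdr* were named after their values were seen. Members and lists were chosen with earlier results of these data known. The 8 alternatives are given in the closing section. Python 3.11.15, numpy 2.4.6, pandas 2.3.3 and scipy 1.17.1 were used, and the steps were tested on simulated data.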

Additional observations from a re-analysis of the deposited data

How the results depend on the processing

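No member changed direction while past the threshold under the 8 alternatives. Only quantile normalization and scaling to the same upper quartile could change a direction, since the other alternatives keep the same pair of values. The count of *Fox* genes higher in the Lgr5+ population, 6, was 3 at a minimum FPKM of 5, 3 when both populations had to reach 1 and 1 at 2-fold. The count of *Fox* genes higher in the Lgr6+ population, 5, was 2 at a minimum of 5 and 2 when both had to reach 1. The count of *Klf* genes higher in the Lgr5+ population, 3, was 5 after quantile normalization. The count of *Klf* genes higher in the Lgr6+ population, 4, was 2 at a minimum of 5, 2 when both had to reach 1, 2 after quantile normalization and 2 at 2-fold. The *Fox* median of -0.17 was 0 without a filter and -0.41 after quantile normalization. The *Klf* median of -0.17 was 0 without a filter, -0.37 at a minimum of 5, -0.37 when both had to reach 1 and -0.35 after quantile normalization. Of the 18 members past 1.5-fold, 9 kept the call wherever a value could be had. Of these, *Foxc1*, *Klf7* and *Klf16* had a value under all 8 alternatives. *Foxf2*, *Foxm1* and *Klf5* had one under 7, *Foxc2* under 6, and *Foxn4* and *Klf1* under 5. Values were missing where a filter or a value of 0 left the gene out, so these genes were checked less. Of the other 9 members, 8 lost the call only at 2-fold. *Klf12* also lost it after quantile normalization, which brought *Klf6* past the threshold at -0.61 and left *Foxq1* and *Klf1* below the filter. After quantile normalization 26.5% and 24.7% of all kept genes were higher in the Lgr5+ and the Lgr6+ population. No paired analysis was possible because the table holds 1 value per population, and for the same reason no replicate could be left out. The fragments behind single values were read only through the steps, and low values were read less finely in the Lgr5+ population.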

Other observations

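The rule on symbols left out 4 genes whose names begin with those of the family. *Foxred1* and *Foxred2*, which encode oxidoreductases with no forkhead domain, had FPKM of 6.45 and 9.47 and of 4.98 and 2.06 in the Lgr5+ and the Lgr6+ population. The antisense transcripts *Foxd2os* and *Foxl2os* were listed at 0 in the Lgr5+ population and had FPKM of 0.205 and 0.0229 in the Lgr6+ population, while *Foxd2* and *Foxl2* themselves were listed at 0 in both.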
